A study of Mus musculus with 12 samples.

Results

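Control ovaries and control gonadal fat pads were compared to describe what marks each normal tissue in the mice of this study, and the members are the 3 ovary and 3 fat arrays of the control group, 6 of the 12 arrays in the series. The donors were C57BL/6J females (the strain label reads C57BL/6) that received an empty silicone capsule at 25 days of age and were killed about 60 days later. The other 6 arrays come from females of the same strain and age whose capsule held 5 mg of DHT (dihydrotestosterone, an androgen), and here they serve as arrays that the control comparison did not use and for a test of whether the tissue difference changed with treatment. Total RNA of whole rinsed tissue was labelled and hybridised to the Affymetrix Mouse Transcriptome Assay, which gives 1 log2 value per transcript cluster, a set of probes for 1 locus. The titles call the replicates biological, but they do not say whether RNA was pooled, whether an ovary and a fat pad of the same number came from 1 mouse, or in which phase of the estrous cycle a mouse was killed.

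The ovary holds oocytes inside follicles whose granulosa and theca cells make estrogens from cholesterol, and after ovulation the follicle turns into a corpus luteum that makes progesterone. Gonadal fat is white adipose tissue beside the uterus and ovaries, whose adipocytes store triglyceride in 1 large droplet, release fatty acids by lipolysis and secrete adipokines such as leptin and adiponectin. Both tissues also contain vessels, fibroblasts and immune cells. In such bulk RNA, fewer cells of a type and less RNA per cell cannot be told apart.

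In the fat columns the values of 26501 of 65929 clusters (40.2%), those of chromosomes 10 to 19, stood beside the names of other clusters and were re-paired. Over these clusters the correlation between the ovary and fat means was 0.0139 as deposited and 0.946 after re-pairing, against 0.944 over the 39428 clusters that were in place. Every value of a gene on these chromosomes rests on the re-pairing, and 29 of the called genes named here have the opposite direction in the deposited order. The deposited values of the tissues lay on different levels, with control array medians of 4.35 to 4.39 for ovaries and 3.38 to 3.52 for fat, so the 6 arrays were quantile-normalized together and share a median of 3.91. A difference that runs through the whole tissue, such as more RNA per cell, cannot be told apart from this step. Values below are quantile-normalized log2 values, and a difference of 1 is 2-fold. Correlations were 0.985 to 0.991 between arrays of 1 tissue and 0.848 to 0.879 between tissues. Across genes, replicates differed with an SD of 0.226 to 0.283 (ovaries) and 0.221 to 0.275 (fat). Precision is limited by having 3 arrays per tissue.

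Of 19801 genes tested, 1545 (7.8%) were higher in the ovaries and 1100 (5.56%) were higher in gonadal fat, at an adjusted p of at most 0.05 (limma, Benjamini-Hochberg) and a difference of at least 2-fold. Genes that pass both criteria are called higher in that tissue throughout. The p criterion by itself was passed by 13004 genes (65.7%). In fat, 526 of the ovary genes (34%) lay below the array median on all 3 arrays. In all 3 ovaries, 159 of the fat genes (14.5%) did. Over all genes tested, 742 lay below it on all 3 fat arrays and 652 on all 3 ovary arrays. Testing needed at least 3 arrays above the median, so such genes lay above it on every array of the other tissue. The filter thus fixed their direction. Where a tissue lay below the median on all its arrays, it was set to the median for the fold, which is then written as "at least". By this measure 26 genes (0.131%) were at least 16-fold higher in the ovaries and 15 (0.0758%) were at least 16-fold higher in fat. The median difference over all genes tested was -0.03. The balance between the tissues rests on the scaling: 58.4% of called genes were higher in the ovaries, against 96.4% (8430 and 312 genes, median difference 0.89) with the deposited values left as they are and 29.8% (1007 and 2374 genes, median difference -0.33) with each array centred on ribosomal protein genes. With the deposited values the medians of 23 of 51 gene lists changed sign, 10 of the 32 lists with a fat call lost every one, and ovary counts grew, from 8 to 15 for gonad transcription factors and from 9 to 15 for the TGF-beta family. No gene named here that was called changed direction under any of these scalings, but 17 named genes that were not called went from a negative to a positive difference with the values as deposited.

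**Figure D1:**
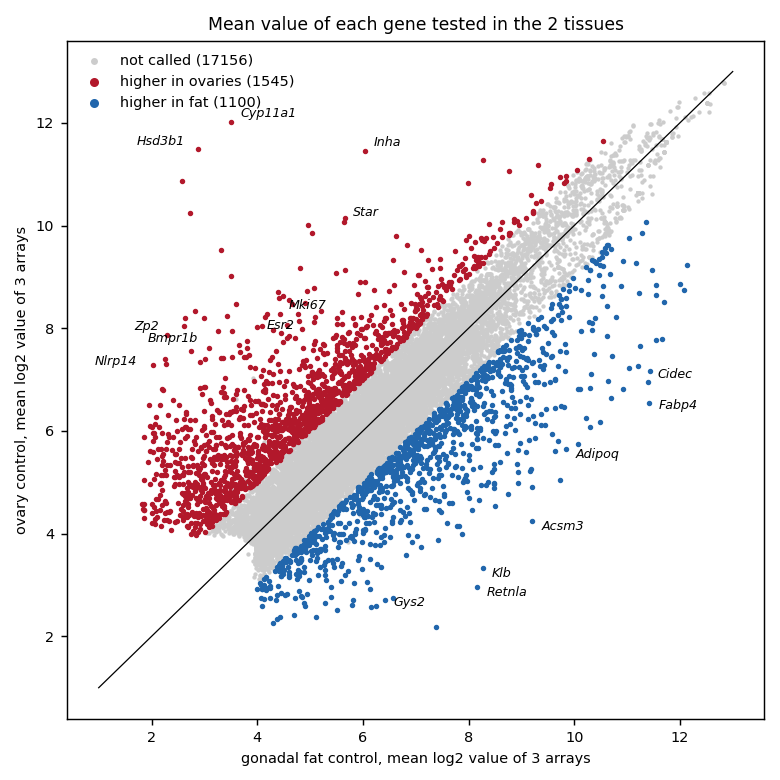
Mean quantile-normalized log2 value of each gene tested in the 3 control fat arrays (horizontal axis) and the 3 control ovary arrays (vertical axis), with the line of equal values. Red points are the 1545 genes called higher in the ovaries, blue points the 1100 called higher in fat and grey points the rest. Red points reach further from the line than blue ones, and many of them lie at low values in fat.

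The labelled tissues were checked against defining markers. In the ovary arrays the oocyte coat gene Zp2, the granulosa gene Inha, the steroidogenic gene Cyp11a1 and the luteal gene Ptgfr were all called higher, and in the fat arrays Adipoq, Plin1, Cidec, Lep and Retn were. Adipoq measured 6.21, 5.58 and 5.18 on ovary arrays 1 to 3, so adipocyte transcripts were not at the bottom of the range there. The plot of marker genes by array shows that the values of the tissues do not overlap for any marker drawn. The same held for all 1545 genes called higher in the ovaries and 1098 of the 1100 called higher in fat. The lack of overlap is therefore no check beyond the calls themselves. Zp2 and Cyp11a1 lay below the array median on all 3 fat arrays, so the filter had fixed the direction of their calls. The theca enzyme gene Cyp17a1 was not called.

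**Figure D2:**
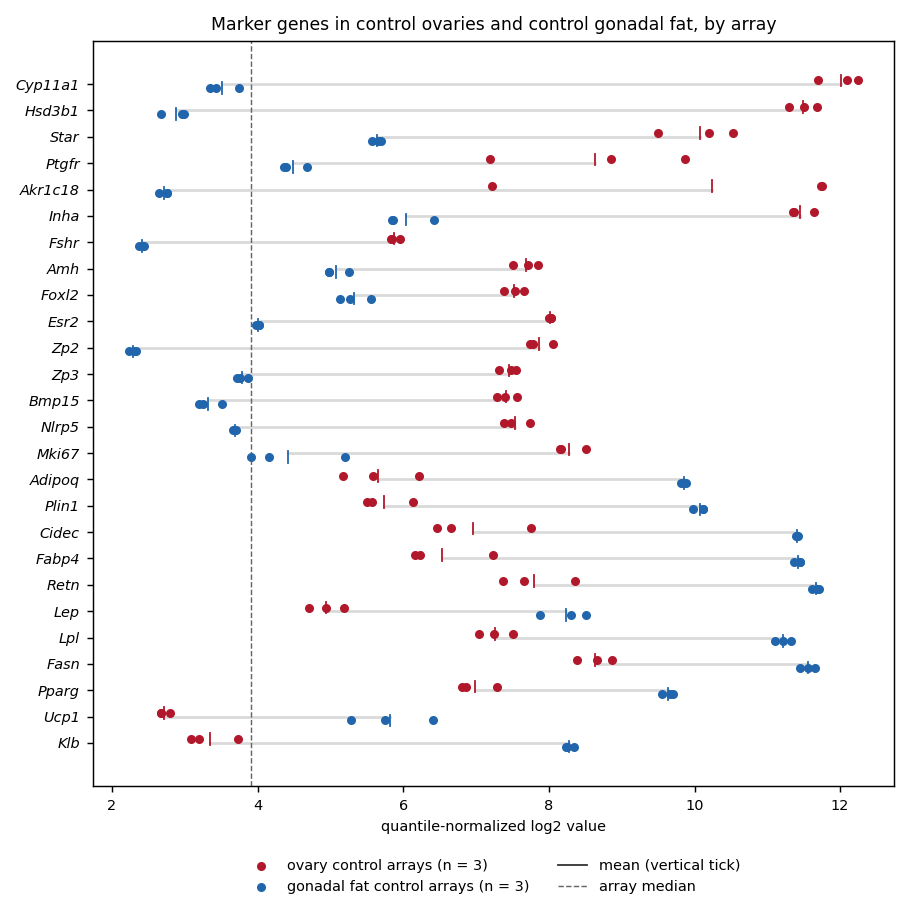
Quantile-normalized log2 values of marker genes on each of the 3 control ovary arrays (red) and 3 control gonadal fat arrays (blue), with the mean of each tissue as a vertical tick and the array median as a dashed line. Akr1c18 spreads widest among the ovaries, from 7.21 to 11.75, while Fshr and Esr2 differ little from ovary to ovary.

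Genes of steroid hormone synthesis gave the largest differences. Cyp11a1, the enzyme that cleaves the side chain of cholesterol to make pregnenolone, measured 11.70, 12.09 and 12.24 in the ovaries and 3.42, 3.75 and 3.35 in fat. It was at least 275-fold higher in the ovaries, with a fitted difference of 8.51 ± 0.16 (SE) and an adjusted p of 3.23e-07. Hsd3b1, which turns pregnenolone into progesterone, followed with 11.30, 11.50 and 11.69 in the ovaries and 2.67, 2.98 and 2.96 in fat, at least 192-fold (adjusted p = 1.39e-07). Both genes sat near the top of the ovary arrays and under the median of the fat arrays. Star, the carrier that brings cholesterol into mitochondria, measured 9.50, 10.20 and 10.52 against 5.69, 5.58 and 5.65, a 21.7-fold difference (adjusted p = 6.32e-06). Fdx1, which passes electrons to Cyp11a1, was 11.9-fold higher. Of 16 members tested of this list, 13 were higher in the ovaries and 2 in fat, with a median difference of 2.99. Among those with a value, 7 lay below the median on all 3 fat arrays and 2 on all 3 ovary arrays. For those tested, the filter fixed the direction. The list was written with earlier results of these data known, as were all lists below, and 17 of its 21 genes had a value, so the others were not analysed here.

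Enzymes later in the pathway divided between the tissues. Hsd17b1, which makes estradiol from estrone in granulosa cells, was 20.6-fold higher in the ovaries (difference 4.37 ± 0.15, adjusted p = 1.17e-06). Akr1c14, an enzyme that reduces 3-keto steroids, Hsd11b2, which inactivates glucocorticoids, and Srd5a1, a steroid 5-alpha reductase, were higher in the ovaries by 3.12, 2.12 and 1.85 on the log2 scale. Going the other way, Hsd11b1, which regenerates active glucocorticoid, measured 3.74, 3.82 and 3.45 in the ovaries and 5.25, 4.97 and 5.32 in fat and was at least 2.41-fold higher in fat (adjusted p = 6.87e-05). Hsd17b12, an enzyme of very long chain fatty acid elongation that also acts on estrone, was 3.25-fold higher in fat. With the values as deposited, Hsd11b1 and Hsd17b12 were higher in fat by 0.60 and 0.83 and were not called, which left no member of the list called in fat.

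Genes of the corpus luteum differed strongly from fat and also from ovary to ovary. Akr1c18, the enzyme that converts progesterone to an inactive form in rodents, measured 7.21, 11.74 and 11.75 in the 3 ovaries and 2.64, 2.76 and 2.76 in fat. It was at least 80.2-fold higher in the ovaries (difference 7.52 ± 1.13, adjusted p = 9.64e-04), and ovary 1 lay far below the others yet above every fat array. Ptgfr, the receptor through which prostaglandin F2-alpha ends luteal function, measured 7.19, 8.85 and 9.86 against 4.68, 4.37 and 4.39, a 17.8-fold difference (adjusted p = 7.42e-04). Sfrp4, a secreted Wnt antagonist found in rodent corpora lutea, measured 9.12, 10.42 and 10.92 against 6.36, 5.12 and 5.52 (22.4-fold, adjusted p = 2.13e-04). Hsd17b7, which acts in luteal estradiol and in cholesterol synthesis, measured 6.80, 8.69 and 11.23 against 5.92, 5.74 and 6.18. Of 9 members tested, 8 were higher in the ovaries, with a median of 4.44, and the count was 8 without any 1 ovary array and 7 without any 1 fat array, where Hsd17b7 was no longer called. The mean of these members was 8.70, 10.04 and 10.57 on ovary arrays 1 to 3 and between 5.11 and 5.19 in fat. Cyp17a1, the theca enzyme that makes androgens, spread in the same order with 4.26, 5.48 and 10.12 against 3.56, 3.57 and 3.69 in fat and was not called with all arrays (difference 3.01, adjusted p = 0.0814). It was called without ovary array 1 (4.20) and without ovary array 3 (1.26).

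The cholesterol synthesis list, which shares Hsd17b7 with the luteal list, followed the luteal genes across the ovaries rather than separating the tissues. Its members averaged 6.68, 7.11 and 8.02 in ovaries 1 to 3 and 6.40 to 7.02 in fat, and 18 of 18 were highest on ovary array 3. Only 4 were called higher in the ovaries: Hsd17b7, Fdps (2.11), Hmgcs1 (1.49) and Dhcr7 (1.12), which act at early and late steps of the pathway. Pmvk, the phosphomevalonate kinase, was 2.6-fold higher in fat. The call of Dhcr7 was lost without any 1 array other than ovary array 1 or fat array 3. The list's median difference was 0.32, and 11 members were called in the ovaries with the values as deposited. Some genes stand in more than 1 of the luteal, theca, steroid and cholesterol lists, so their counts are not separate lines of support.

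Granulosa cell genes were steady among the ovaries. Inha, the inhibin alpha subunit, measured 11.35, 11.64 and 11.37 in the ovaries and 5.85, 6.42 and 5.86 in fat and was 42.6-fold higher in the ovaries (difference 5.41 ± 0.17, adjusted p = 8.99e-07). Its partner subunits Inhba and Inhbb were 8.88- and 7.28-fold higher. Fshr, the receptor of follicle-stimulating hormone, measured 5.83, 5.95 and 5.84 against 2.43, 2.37 and 2.44, which is at least 3.91-fold since fat lay below the median (adjusted p = 3.23e-07). Esr2, the estrogen receptor of granulosa cells, measured 7.99, 8.03 and 8.04 against 3.98, 4.02 and 4.02 and was 16.2-fold higher, with almost no spread in either tissue. Amh, the anti-Mullerian hormone of growing follicles, measured 7.85, 7.50 and 7.72 against 4.99, 5.26 and 4.98 (6.14-fold, adjusted p = 3.03e-06), and its receptor Amhr2 was 5.74-fold higher. In all, 12 of 16 members tested were higher in the ovaries and none in fat, with a median of 2.74. Members that missed the criteria were Nppc, the precursor of C-type natriuretic peptide, which holds oocytes in meiosis (0.99, and 1.05 to 1.11 and called without ovary array 1 or 3 or fat array 2), Fst (0.39), Npr2 (-0.06) and Kitl (-0.45).

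Other genes among the 25 with the largest ovary differences were of mixed function. Prss35, a secreted protease-like protein, was 32.9-fold higher, Acsbg1, a long chain acyl-CoA synthetase, 28.3-fold, and Slc18a2, the vesicular monoamine transporter, 19.9-fold. Akr1cl, an aldo-keto reductase, measured 10.86, 10.76 and 10.99 against 2.59, 2.48 and 2.65 and was at least 125-fold higher (adjusted p = 3.84e-08), while Elobl, an elongin B-like gene, was at least 49.1-fold higher. Smarca1, a chromatin remodelling ATPase, Grb14, an adaptor that restrains the insulin receptor, Igsf11, an adhesion protein, and Dsp, the desmosome protein desmoplakin, had differences of 5.19, 4.08, 4.07 and 4.70. Stc1, the secreted hormone stanniocalcin, Kctd14, Mboat2, a phospholipid acyltransferase, Greb1, an estrogen-responsive gene, and Lipg, endothelial lipase, were 15.5-, 15.4-, 15.2-, 14.1- and 13.8-fold higher. The values of these genes did not overlap between the tissues, which the choice of the 25 required.

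Oocyte genes were low in fat. There 7 of 10 egg coat and growth factor genes lay below the median on all 3 arrays, against 742 of 19801 genes tested. The filter fixed the direction of these 7, since a tested gene needed at least 3 arrays above the median. Zp2, which encodes a protein of the egg coat, measured 8.06, 7.74 and 7.79 in the ovaries and 2.23, 2.31 and 2.33 in fat. It was at least 15.5-fold higher in the ovaries (adjusted p = 2.86e-07). Zp3, which encodes another coat protein, measured 7.55, 7.32 and 7.47 against 3.71, 3.86 and 3.76 (at least 11.6-fold). Bmp15, a growth factor that oocytes send to granulosa cells, measured 7.55, 7.29 and 7.39 against 3.24, 3.51 and 3.19 (at least 11.3-fold), while its partner Gdf9 was 3.13-fold higher. Of 10 egg coat and growth factor genes tested, 8 were higher in the ovaries. The exceptions were Kit, the receptor for Kit ligand, which is also found in other cells (-0.31), and Izumo1r, the egg receptor for sperm, at 0.00.

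Genes for proteins stored in the egg showed the same pattern. Nlrp14 measured 7.56, 7.07 and 7.20 in the ovaries and 2.05, 1.99 and 2.03 in fat, at least 10.3-fold at the median bound and 5.25 ± 0.12 as fitted (adjusted p = 4.75e-07). Nlrp5, a part of the subcortical complex of the oocyte, measured 7.74, 7.38 and 7.48 against 3.70, 3.66 and 3.68, and Btg4, which drives decay of maternal mRNA, measured 6.06, 5.67 and 5.92 against 2.12, 2.08 and 1.99. Padi6, needed for the cytoplasmic lattices of the egg, measured 7.75, 7.31 and 7.39 against 3.77, 4.0 and 3.77 (adjusted p = 1.31e-06). Altogether 19 of 22 maternal factors tested were higher in the ovaries, with a median of 2.39, and none in fat. Among the 23 with a value, 12 lay below the median on all 3 fat arrays, and for those tested the filter fixed the direction. The members averaged 6.29, 6.02 and 6.16 on ovary arrays 1 to 3, and 19 of them were highest on array 1. Among oocyte transcription factors 5 of 10 tested were higher: the homeobox genes Obox1 (3.44), Obox2 (3.64), Obox5 (3.24) and Nobox (2.13), and Taf4b (1.80), whereas Figla, the factor that turns on the coat genes, was at 0.21. The Obox genes form a family of close copies, so probes may not tell them apart. Of 12 such factors with a value, 7 lay below the median on all 3 fat arrays and 2 on all 3 ovary arrays. For those tested, the filter again fixed the direction. Meiosis genes mostly fell under the filter on low values, with 3 of 15 tested. Of those, Mael, a piRNA pathway gene, was higher in the ovaries (1.97) and Sycp3, a synaptonemal complex protein, in fat (3.54, 3.43 and 3.35 against 5.73, 4.72 and 5.88, adjusted p = 7.09e-04).

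Stretches of sequence just before the transcription start are shown for Zp3, Padi6 and Btg4 because the E-box letters CACCTG, the kind of site read by FIGLA and other basic helix-loop-helix factors, recur in this group. Motifs were counted on both strands of promoter records, a window from 250 bases before the start to 50 bases after it. In this window CACCTG occurred in 12 of 18 maternal factor genes with a RefSeq promoter (66.7%). It occurred in 3 of 7 coat and growth factor genes, against 22.6% of 27025 genes in all. It occurred in 36.8% of 19 adipocyte and 7.41% of 27 cell cycle genes. A match is a description of the letters, and binding was not measured. The motifs shown here and below are part of a larger set that was counted, and some others did not recur. The NR5A receptor motif occurred in 6.25% of 16 steroid synthesis genes, against 5.38% of all genes. The NOBOX motif occurred in 0 of 7 coat and growth factor genes and 16.7% of 18 maternal factor genes, against 9.22%. The PPAR receptor motif occurred in 0 of 19 adipocyte genes, but at 0.0481% of all genes it is too rare for comparison. In the RefSeq sequences (GRCm38.p6, 5′ to 3′ along the gene, E-box in capitals), Zp3 spans chr5:135980003-135980102 on the plus strand, Padi6 chr4:140742669-140742768 on the minus strand and Btg4 chr9:51115884-51115983 on the plus strand, with the box starting 55, 78 and 70 bases before the start.
Zp3: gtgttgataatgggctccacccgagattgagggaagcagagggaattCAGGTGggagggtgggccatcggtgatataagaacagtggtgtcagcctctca
Padi6: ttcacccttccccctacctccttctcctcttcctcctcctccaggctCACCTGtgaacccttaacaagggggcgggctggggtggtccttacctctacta
Btg4: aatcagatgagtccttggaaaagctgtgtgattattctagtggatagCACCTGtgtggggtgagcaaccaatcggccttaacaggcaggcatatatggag

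Transcription factors that set up the gonad were in part higher in the ovaries. Nr5a1 (steroidogenic factor 1) and Nr5a2, a related receptor of granulosa and luteal cells, were 8.21- and 13.1-fold higher in the ovaries. Foxl2, which maintains granulosa identity, measured 7.38, 7.53 and 7.66 against 5.14, 5.56 and 5.27 (4.6-fold, adjusted p = 9.47e-06), and Gata4, Lhx9, Nr0b1 and Tcf21 were 5.42-, at least 2.35-, at least 3.94- and 3.82-fold higher. Wt1, the Wilms tumor factor, measured 7.57, 7.68 and 7.36 against 7.34, 7.05 and 7.10 and Gata6 8.29, 8.49 and 8.56 against 7.97, 7.75 and 7.91, and neither was called. Counts were 8 of 18 higher in the ovaries and none in fat. Theca genes had 6 of 8 higher, among them Hhip, which binds hedgehog ligands (3.43), and Aldh1a1, a retinaldehyde dehydrogenase (3.0). In the hedgehog pathway, through which granulosa cells address theca cells, the ligands Ihh and Dhh were higher by 1.48 and 1.14 and the receptor Ptch1 by 1.24, while Gli1, Gli2, Gli3, Smo and Shh lay between -0.18 and 0.81 and were not called.

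Ligands and receptors of the TGF-beta and Wnt families were called in both tissues. In the TGF-beta family 9 of 24 tested were higher in the ovaries and 1 in fat, beside 7.8% and 5.56% of all genes. The ovary genes were led after Inha by Bmpr1b, a BMP receptor (7.56, 7.81 and 7.50 against 3.10, 3.11 and 3.07, at least 13.1-fold). Acvr1c, the receptor ALK7 of adipocytes, measured 4.61, 4.45 and 4.31 against 7.95, 8.11 and 8.11 and was 12.1-fold higher in fat (adjusted p = 5.97e-07). Bmpr1b and Acvr1c were thus high in different tissues, and Acvr1c was the only member of the family called in fat. In the Wnt list 6 members were higher in the ovaries and 4 in fat of 25 tested. With the values as deposited, 10 were higher in the ovaries and 0 in fat, so the fat calls rest on the scaling. Ovarian were Sfrp4, the stem cell receptor Lgr5 (3.29), the antagonist Sfrp1 (2.24), the ligands Wnt4 (1.70) and Wnt10b (1.02) and the enhancer Rspo2 (1.52). Fat had the enhancer Rspo3 (1.59 higher), the receptor Fzd4 (1.39), and the antagonists Dkk2 (1.17) and Sfrp2 (1.10). The call of Wnt10b was lost without ovary array 3 (0.92) or fat array 1 or 3, that of Sfrp2 without ovary array 3 (0.93 higher in fat), and that of Dkk2 without ovary array 1 or 3 or fat array 2 or 1 (0.70 without the last).

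Most cell cycle genes were higher in the ovaries. Mki67, a protein of proliferating cells, measured 8.51, 8.15 and 8.17 in the ovaries and 5.20, 3.91 and 4.16 in fat (14.5-fold, adjusted p = 5.25e-05), and Top2a, the topoisomerase of dividing cells, measured 7.68, 7.21 and 7.29 against 3.27, 2.82 and 2.96 (adjusted p = 1.29e-06). Fat array 1 was the highest of the fat arrays for Mki67. Of 29 genes tested, 25 were higher in the ovaries, with a median of 2.23, and all 29 had a positive difference. For 10 of the 29, which lay below the array median on all 3 fat arrays, the filter had fixed that direction. Members that missed the criteria were Pcna (0.91), Birc5 (0.91), Ccne1 (0.82) and E2f1 (0.66). Ovary array 1 was the highest of the ovaries for 28 of the 29. CCAAT, read on both strands in the same window, occurred in 21 of 27 cell cycle genes (77.8%) against 41.1% of all genes, and TTTGAA, a cell cycle element, in 44.4% against 20.2%. The stretches before Cdk1, the mitotic kinase (2.44), and Ccnb2, a cyclin that activates it (2.82), are shown with each CCAAT box, on either strand, in capitals. Cdk1 spans chr10:69352913-69353012 on the minus strand and Ccnb2 chr9:70421555-70421654 on the minus strand (RefSeq, GRCm38.p6).
Cdk1: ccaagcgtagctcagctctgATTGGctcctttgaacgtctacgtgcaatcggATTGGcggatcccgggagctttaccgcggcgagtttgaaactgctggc
Ccnb2: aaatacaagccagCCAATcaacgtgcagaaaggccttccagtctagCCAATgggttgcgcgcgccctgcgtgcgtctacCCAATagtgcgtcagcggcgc

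All 25 adipocyte genes tested were higher in fat. Fabp4, the fatty acid binding protein of adipocytes, measured 7.23, 6.16 and 6.23 in the ovaries and 11.37, 11.44 and 11.44 in fat, a 29.5-fold difference (fat higher by 4.88 ± 0.26, adjusted p = 7.23e-06). Adipoq, which encodes adiponectin, measured 9.81, 9.89 and 9.84 in fat and was 18.3-fold higher there than in the ovaries (adjusted p = 8.06e-06). Lep, which encodes leptin, measured 4.94, 5.18 and 4.71 against 7.87, 8.52 and 8.31 (9.78-fold higher in fat), and Retn, which encodes resistin, 8.35, 7.65 and 7.37 against 11.71, 11.61 and 11.68 (14.6-fold). Pparg, the nuclear receptor that drives adipocyte formation, measured 6.81, 6.87 and 7.29 against 9.55, 9.66 and 9.70 (6.28-fold, adjusted p = 4.90e-06). Differences in the list ran from 2.23 for Plin4 to 4.88 for Fabp4, with a median of 3.77 higher in fat. The members averaged 6.60, 6.31 and 6.20 on ovary arrays 1 to 3, with 19 of 25 highest on array 1, and 9.95 to 10.12 in fat. Every member was above the median on at least 1 ovary array, in contrast to the oocyte genes in fat.

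For Lep and Plin1, both adipocyte genes, the stretch with the letters TTGCNNAA, the kind of site read by C/EBP factors, is shown. This motif occurred on either strand in 5 of 19 adipocyte genes with a promoter (26.3%), in 12.2% of all genes and in 7.41% of the cell cycle genes. Lep spans chr6:29060120-29060219 on the plus strand and Plin1 chr7:79732781-79732880 on the minus strand (RefSeq, GRCm38.p6, motif in capitals).
Lep: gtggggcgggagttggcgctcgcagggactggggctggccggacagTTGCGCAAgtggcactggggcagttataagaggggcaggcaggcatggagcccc
Plin1: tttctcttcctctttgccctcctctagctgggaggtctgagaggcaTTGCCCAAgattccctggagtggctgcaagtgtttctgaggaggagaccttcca

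Genes of the lipid droplet and of lipolysis were fat genes in 13 of 18 cases and ovary genes in none. Plin1, the coat protein of the droplet, measured 6.13, 5.51 and 5.57 in the ovaries and 9.98, 10.11 and 10.11 in fat (20.1-fold, adjusted p = 1.44e-06). Cidec, which fuses droplets, measured 7.75, 6.65 and 6.46 against 11.42, 11.40 and 11.40 (21.9-fold), with ovary array 1 the highest of the ovaries for both. The lipases Pnpla2 and Lipe, which act in turn on stored triglyceride, were 12.2- and 9.56-fold higher, Ces1d, a triacylglycerol hydrolase, 19.8-fold, and G0s2, an inhibitor of Pnpla2, 16.7-fold. Enzymes and inhibitor of lipolysis were thus both fat genes. Plin3, a coat protein of small droplets in many tissues, was at 0.30 and Hilpda at -0.26, and neither was called.

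Fatty acid and triglyceride synthesis were higher in fat along most of the pathway. Acly, which makes cytosolic acetyl-CoA, Acaca, which makes malonyl-CoA, and Fasn, the fatty acid synthase, were 4.18-, 9.53- and 7.55-fold higher in fat, and Fasn measured 8.87, 8.39 and 8.66 against 11.56, 11.45 and 11.66 (adjusted p = 2.61e-06). Pnpla3, a lipid droplet enzyme that responds to lipogenic signals, measured 5.47, 4.86 and 4.82 against 9.65, 9.67 and 9.84 (25.5-fold, adjusted p = 1.44e-06), and Thrsp, a lipogenic regulator, was 19.3-fold higher. Fads2, the delta-6 desaturase, went the other way with 8.18, 8.76 and 9.50 in the ovaries against 7.68, 6.98 and 6.97 in fat (3.04-fold higher in the ovaries). Counts were 14 of 18 higher in fat for fatty acid synthesis and 11 of 16 for triglyceride synthesis, with 1 in each higher in the ovaries. Gpd1, which supplies glycerol 3-phosphate, was 17.1-fold higher in fat, Pck1, which feeds glycerol synthesis in fat, 15.8-fold, Agpat2, 12.8-fold, and Dgat2, which adds the last acyl chain, 13.7-fold. The phosphatidate phosphatases split, with Lpin1 9.77-fold higher in fat and Lpin2 2.2-fold higher in the ovaries.

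Uptake of fatty acids and glycerol showed 9 of 15 genes higher in fat. Fabp4 stands in both this list and the adipocyte list, so their counts are not separate lines of support. Lpl, lipoprotein lipase, measured 7.51, 7.05 and 7.24 against 11.21, 11.32 and 11.11 (15.4-fold, adjusted p = 9.35e-07), and Gpihbp1, which holds it on capillaries, was 10.6-fold higher, as were the fatty acid transporter Cd36 (14.1-fold), the lipase regulator Angptl8 (15.8-fold) and the glycerol channel Aqp7 (19.5-fold). Fabp3, the fatty acid binding protein of heart and muscle, was the exception with 7.51, 7.82 and 8.14 in the ovaries and 5.05, 5.25 and 6.50 in fat (4.67-fold higher in the ovaries, adjusted p = 0.00156). With the mean of its clusters in place of the brightest, Fabp3 was at 0.84 and not called, and the pseudogene Fabp3-ps1, whose probes may read the same transcript, was at 2.14.

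In mitochondrial pathways the differences were smaller, and the medians of fatty acid oxidation and of the citrate cycle and respiratory chain turn to 0.10 and 0.35, higher in the ovaries, with the values as deposited. Fatty acid oxidation had 10 of 26 genes higher in fat and 2 in the ovaries, with a median of 0.77 higher in fat. The carnitine palmitoyltransferases, which admit fatty acids to mitochondria, split: Cpt1a measured 9.29, 9.35 and 9.38 in the ovaries and 7.72, 7.13 and 6.83 in fat (4.32-fold higher in the ovaries, adjusted p = 1.27e-04), while Cpt1b was 2.05-fold higher in fat. Peroxisomal Ehhadh and Abcd2 were 7.63- and 7.6-fold higher in fat. Breakdown of branched-chain amino acids had 9 of 16 higher in fat, Aldh6a1 by 2.19 and Bckdhb by 2.0, and none in the ovaries (with the values as deposited, 3 in fat and 1 in the ovaries). In the citrate cycle and respiratory chain all 21 members had lower means in the ovaries, by a median of 0.54, but just Cox5a (1.04) and Idh3a (1.25) passed the criteria. Of the thermogenic genes 6 of 15 were higher in fat (4, with 2 in the ovaries, with the values as deposited). Among them Ucp1, the uncoupling protein of brown and beige fat, measured 2.67, 2.67 and 2.80 in the ovaries and 5.29, 6.41 and 5.74 in fat (at least 3.74-fold, adjusted p = 5.38e-05), while Prdm16, a regulator of brown fat, was at -0.65 and Cox7a1 was 2.29-fold higher in the ovaries. Without 1 array, Cox5a (without ovary array 1 or fat array 2 or 3), Cpt1b (without fat array 2) and Cox7a1 (without ovary array 3) fell to 0.97, 0.85 and 0.88 at the least and were not called.

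Glucose handling and insulin action had 11 of 26 genes higher in fat. With the values as deposited, 7 were higher in fat and 5 in the ovaries, and the list's median was 0.15 against -0.75. Slc2a4, the insulin-responsive glucose transporter GLUT4, measured 5.40, 5.41 and 4.98 against 8.39, 8.45 and 8.59 (9.28-fold, adjusted p = 1.81e-06), and Trarg1, which acts in its trafficking, was 14.7-fold higher. Hk2, a hexokinase, Pcx, pyruvate carboxylase, and Pde3b, which mediates the antilipolytic action of insulin, were 9.16-, 11- and 12.6-fold higher. Gys2, the liver form of glycogen synthase, measured 2.75, 2.68 and 2.68 in the ovaries and 6.31, 6.38 and 6.55 in fat (at least 5.67-fold), and the muscle form Gys1 was 2.71-fold higher. Slc2a1, the general glucose transporter, was at 0.78 and not called, and Ldhb was 2.49-fold higher in the ovaries. The insulin receptor Insr was at -0.77 and Igf1r, the receptor for insulin-like growth factor 1, was 2.88-fold higher in the ovaries.

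Hormone receptors and secreted factors separated the tissues sharply in a few cases. Of 24 hormone receptors tested, 4 were higher in the ovaries, 5 in fat and 15 were not called, with a median of -0.51. With the values as deposited, 6 were higher in the ovaries and 4 in fat, and the median was 0.43. Klb, the co-receptor for FGF21, measured 3.73, 3.20 and 3.08 in the ovaries and 8.25, 8.24 and 8.34 in fat (at least 20.6-fold, adjusted p = 1.01e-06), and Ptger3, a prostaglandin E2 receptor that restrains lipolysis, measured 5.35, 5.0 and 4.63 against 9.05, 8.60 and 9.14 (15.4-fold). Mc2r, the ACTH receptor, measured 2.64, 2.62 and 2.57 against 5.79, 5.54 and 6.06 (at least 3.7-fold higher in fat, adjusted p = 1.83e-06), whereas the adrenal enzymes Cyp11b2 and Cyp21a1 were at -0.38 and -0.43. Prostaglandin receptors thus marked both tissues, Ptgfr the ovaries and Ptger3 fat. The estrogen receptors behaved unlike each other: Esr2 was an ovary gene, and Esr1 measured 6.52, 7.32 and 5.99 against 7.35, 7.0 and 7.07 and was not called. Of 21 adipokines and secreted factors tested, 8 were higher in fat (7, with 4 higher in the ovaries, with the values as deposited). They include Retnla, a resistin-like secreted protein also made by macrophages, at 3.40, 2.78 and 2.69 against 8.50, 8.16 and 7.85 (at least 19.2-fold, adjusted p = 2.56e-06), Rbp4, the retinol carrier, 16.3-fold, and Hp, haptoglobin, 9.5-fold. Lcn2, lipocalin 2, was called higher in the ovaries, with 6.35, 8.12 and 5.70 against 5.33, 5.18 and 5.27 (adjusted p = 0.0468), and the call was lost without any 1 array except ovary array 3 (0.76 without ovary array 2).

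Adipogenic transcription factors had 7 of 19 higher in fat. With the values as deposited, 4 were higher in fat and 4 in the ovaries, and the list's median was 0.11 against -0.83. Besides Pparg, Cebpa, which acts with it, was 10.1-fold higher, the early B-cell factors Ebf1 and Ebf2 5.78- and 7.44-fold, Nr1h3, the liver X receptor alpha, 3.78-fold, and the retinoid X receptors Rxrg and Rxra 3.38- and 2.16-fold. Foxo1, a forkhead factor restrained by insulin and present in granulosa cells, was 2.68-fold higher in the ovaries (8.74, 8.85 and 8.91 against 7.36, 7.48 and 7.40, adjusted p = 6.17e-06). Cebpb and Cebpd, which act early in adipocyte formation, were at -0.52 and -0.40. Other genes among the 25 with the largest differences were Acsm3, a mitochondrial acyl-CoA synthetase (4.74, 4.03 and 3.96 against 9.29, 9.0 and 9.33, 31.2-fold, adjusted p = 2.27e-06), Car5b, a mitochondrial carbonic anhydrase (18.5-fold), the transcription factor Dmrt2 (15.6-fold), Nabp1, which binds single-stranded DNA (15.1-fold), and Agmo, which cleaves ether lipids (14.7-fold).

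**Figure D3:**
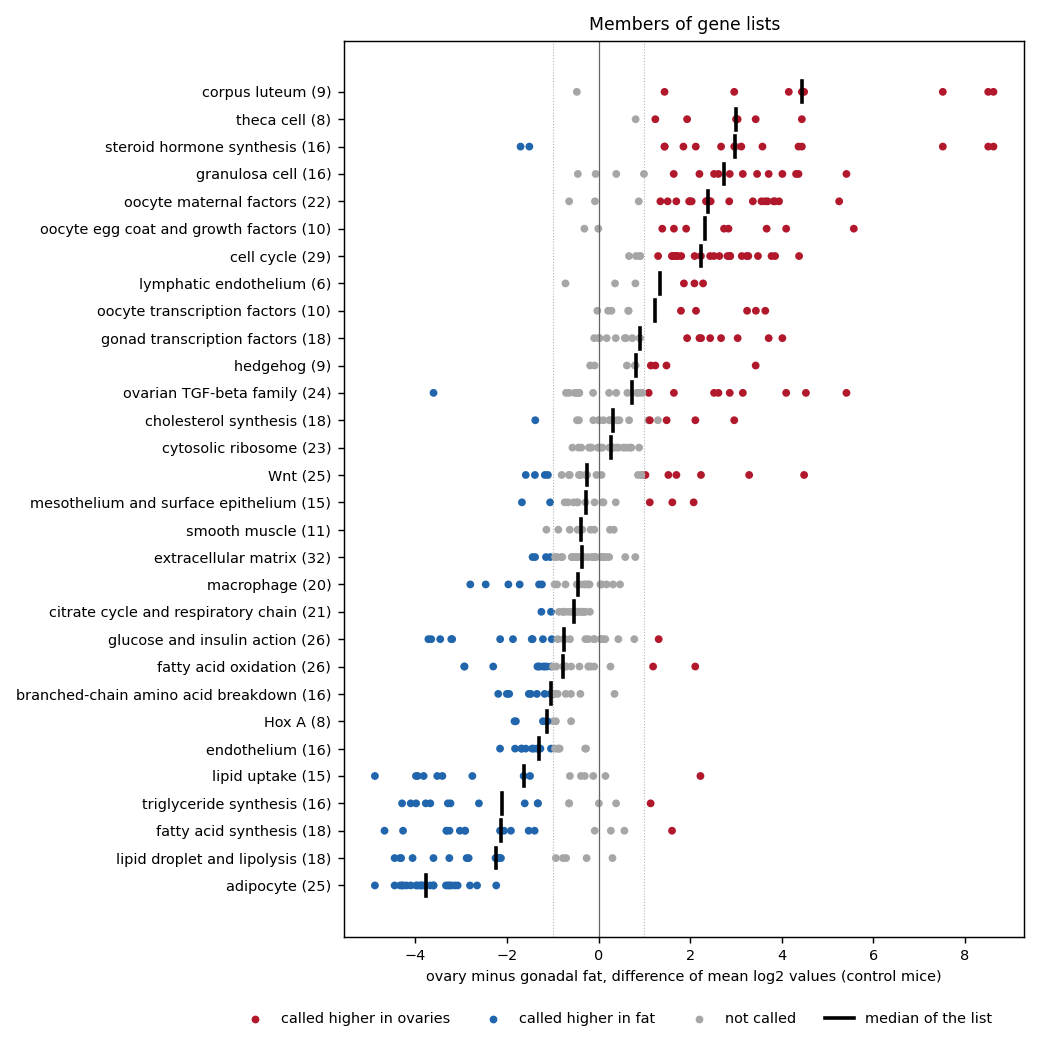
Differences between the tissues for the tested members of gene lists (number of members tested in brackets): horizontal axis, mean log2 value in control ovaries minus mean in control gonadal fat; red and blue points are members called higher in the ovaries or in fat, grey points were not called, the thick tick is the list's median and dotted lines mark 2-fold. The corpus luteum median lies at 4.44 and the adipocyte median at -3.77, while the smooth muscle, extracellular matrix and ribosome medians lie inside the dotted lines.

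Among cells that both tissues contain, vessels and some macrophage genes were higher in fat. Endothelial genes had 10 of 16 higher in fat and none in the ovaries (1 of 16 with the values as deposited), with Pecam1 at 6.85, 6.77 and 7.13 against 8.63, 8.93 and 8.65 (3.54-fold, adjusted p = 2.26e-05) and Cdh5, the endothelial cadherin, 2.67-fold higher. Lymphatic genes went the other way in 3 of 6 cases, Prox1, the lymphatic master factor, by 2.09, Mmrn1 by 2.28 and Reln by 1.86, although Flt4 and Lyve1 were at 0.36 and -0.72. Prox1 and Reln are also expressed outside lymphatic vessels. Macrophage genes higher in fat numbered 6 of 20 (3, with 3 higher in the ovaries, with the values as deposited): Cd163, Mrc1, Folr2, F13a1, Clec10a and Ccl6, of which the first is a hemoglobin scavenger receptor of tissue-resident macrophages and measured 4.93, 4.81 and 4.45 against 7.84, 7.64 and 7.10 (adjusted p = 3.31e-05). General macrophage genes did not pass, with Adgre1 at -0.28, Csf1r at -0.90 (-1.09 and called without fat array 3) and Cd68 at 0.47. Fat array 1 was the highest fat array for 18 of the 20. Complement genes had 3 of 12 higher in fat, C4b by 2.89, Cfb by 2.45 and C6 by 2.0.

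Positional genes also differed. In the Hox A cluster, whose members specify position along the body, 5 of 8 tested were higher in fat, Hoxa10 (3.88, 3.98 and 3.78 against 5.71, 5.74 and 5.61, 3.49-fold) and Hoxa11 (at least 2.43-fold) among them, but none with the values as deposited, where the median was -0.18. In Hox C, Hoxc10 was 5.37-fold and Hoxc9 2.46-fold higher in fat and 6 others were not called, and in Hox B and Hox D none of 8 and 5 passed. Lists of more general function separated the tissues little. Extracellular matrix genes had 4 of 32 higher in fat (Lama4, Eln, Fbln5 and Dcn, of which Fbln5 and Dcn fell to 0.99 and 0.90 without fat array 1, with Dcn also lost without ovary array 3 at 0.80), smooth muscle 0 of 11 and MHC class II 0 of 7, and none in the ovaries. With the values as deposited the matrix list had 0 in fat and 4 in the ovaries (median 0.51 against -0.37), and without fat array 1 it had 2 and 1. Cytosolic ribosome and reference genes had none of 23 and 11 called, with medians of 0.27 and 0.20, and 11 and 4 higher in the ovaries with the values as deposited.

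Genes typical of neighbouring tissues were high on single arrays. Ovary array 2 was at least 4-fold above both other ovaries for 47 genes tested, against 0 on array 1 and 2 on array 3. Ovgp1, which encodes the oviduct glycoprotein, measured 5.06, 11.32 and 4.68 in the ovaries and 3.92, 3.78 and 4.07 in fat and was not called (difference 3.10, adjusted p = 0.126). All 7 oviduct genes tested were highest on ovary array 2, where they averaged 7.59 against 5.22 and 5.16 on the others and 4.67 to 4.81 in fat. The epithelial genes Epcam (5.63, 7.24 and 5.55 against 3.33, 3.47 and 3.48) and Cdh1 (5.77, 8.08 and 5.89 against 3.97, 4.02 and 4.08) were called higher in the ovaries and remained so without array 2, while the list's median difference moved from 0.84 to 0.20. In fat, array 3 carried skeletal muscle genes: the mean of 9 members was 5.20, 5.43 and 7.37 on arrays 1 to 3 and 4.58 to 4.65 in the ovaries. Tnnt3, a fast muscle troponin, measured 5.08, 5.30 and 8.12 in fat. Acta1 and Myl1 were called higher in fat, and the list's median went from 1.28 higher in fat to 0.46 without array 3. Smooth muscle genes averaged 9.12 on fat array 1 and 7.85 and 8.09 on the others, with all 11 members highest there. Without ovary array 2 and fat array 3 together, 1480 genes were higher in the ovaries and 1157 in fat, of which 1417 and 1028 were also called with all arrays.

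**Figure D4:**
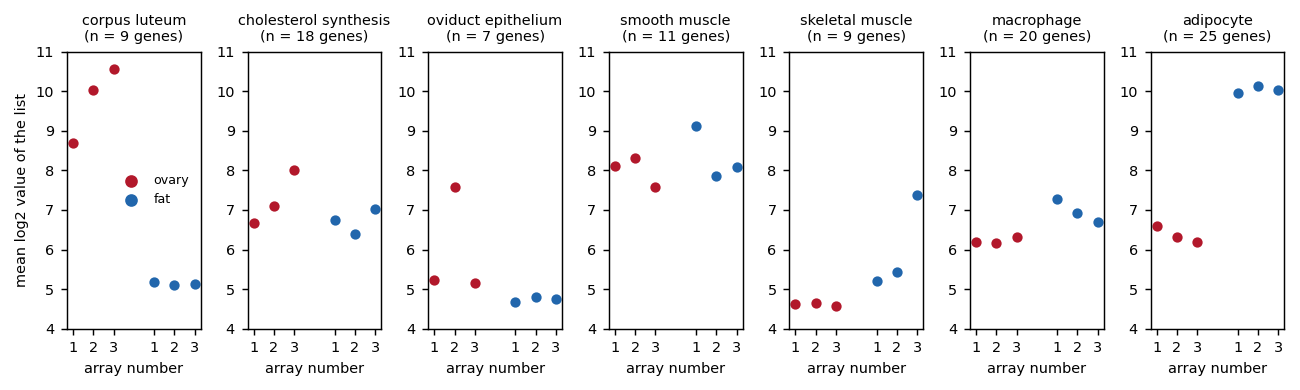
Mean quantile-normalized log2 value of the tested members of 7 gene lists on each control array (horizontal axis, array number; ovaries red, gonadal fat blue; the vertical axis starts at 4). Oviduct genes stand out on ovary array 2 and skeletal muscle genes on fat array 3, and the luteal and cholesterol synthesis genes are highest on ovary array 3.

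The 6 arrays of DHT-treated mice, which the control comparison did not use and which were normalized among themselves, gave the same tissue difference for most genes. In them 1436 genes (7.23% of 19856 tested) were higher in the ovaries and 1269 (6.39%) in fat. Of the 1545 genes higher in control ovaries, 1194 (77.3%) were called the same way, and of the 1100 higher in control fat 858 (78%). Of genes at least 16-fold apart, 23 of 26 ovary genes and 15 of 15 fat genes were called again. All 25 adipocyte, 12 granulosa, 19 maternal factor and 25 cell cycle genes called in controls were called again, whereas 3 of 8 luteal genes and 0 of 4 cholesterol synthesis genes were. Luteal genes had a median difference of 4.44 in controls and 0.55 in DHT-treated mice.

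Luteal genes were among those whose tissue difference changed with treatment by a test of the difference itself. Akr1c18 measured 3.44, 3.45 and 3.58 in DHT-treated ovaries and 2.61, 2.62 and 2.65 in DHT-treated fat, so its difference was 0.86 there against 7.52 in controls (interaction -6.67, adjusted p = 0.021, limma over all 12 arrays). Sfrp4 went from 4.49 to 0.07 (interaction adjusted p = 0.00495) and Ptgfr from 4.15 to 0.55 (0.0277). Cyp11a1 kept a difference of 6.80 (interaction adjusted p = 0.00324). On the fat side Lep went from 3.29 to 5.29 higher in fat (interaction adjusted p = 0.00418). Over all genes tested, 594 (3%) had an interaction at an adjusted p of at most 0.05. This fit takes the arrays as unpaired. With treatment and replicate number as a block, added after seeing the data, 310 genes were called. In that fit Akr1c18, Sfrp4, Cyp11a1 and Lep stayed called and Ptgfr did not (interaction adjusted p = 0.0695, limma with the block). A sign opposite to that in controls was seen for 11 ovary genes and 4 fat genes. The first include Abcb1b, a drug efflux pump, which was 1.99 higher in control ovaries and 1.48 higher in DHT-treated fat (DHT-treated adjusted p = 8.20e-06), the only gene called in opposite directions, and Fkbp5, a chaperone induced by steroid receptors, which went from 1.38 to -0.65. Among the second, Rspo3 went from 1.59 higher in fat to 0.15 higher in the ovaries. Rspo3 was not among the named genes with an interaction at an adjusted p of at most 0.05.

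**Figure D5:**
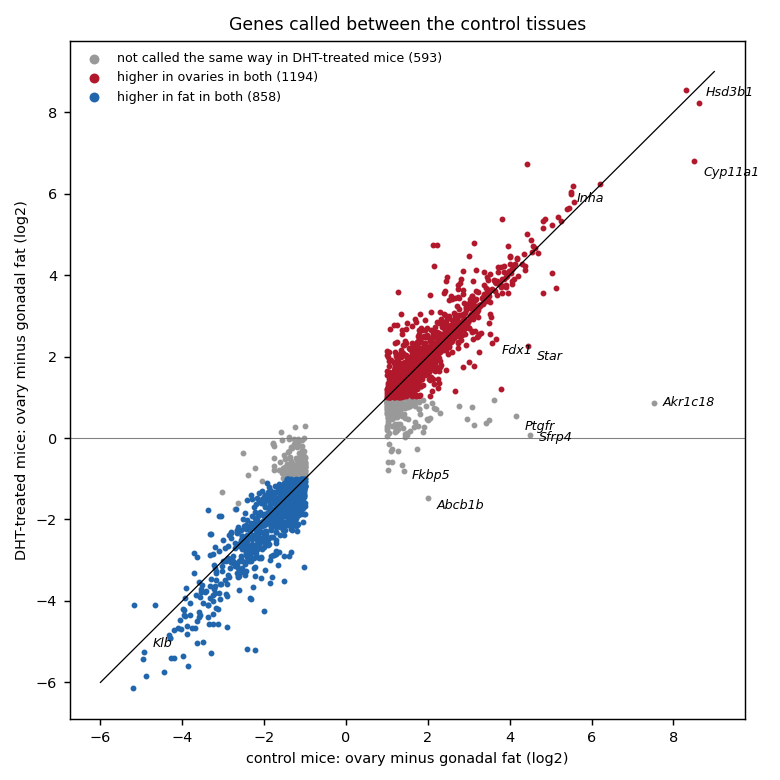
Difference between the tissues (mean log2 value in ovaries minus mean in gonadal fat) in control mice (horizontal axis) and in DHT-treated mice (vertical axis) for the genes called between the control tissues, with the line of equal differences. Red and blue points were called the same way in both, and grey points were not; Akr1c18, Sfrp4 and Ptgfr lie far below the line and Abcb1b lies below 0.

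Clusters of miRNA genes were tested like other loci, although these probes read the locus and not the level of the mature miRNA. Of 254 tested, 10 were higher in the ovaries and 16 in fat, beside 7.8% and 5.56% of all genes, and 19 of the 26 called have a mature sequence in the RefSeq table. Mir126b, at the locus of the endothelial gene Egfl7, measured 2.68, 2.33 and 2.54 in the ovaries and 5.90, 4.99 and 5.66 in fat (adjusted p = 3.51e-05), and Mir708 3.84, 3.76 and 3.81 against 5.99, 6.43 and 5.99. Mir365-1 and Mir365-2, on chromosomes 16 and 11, give the same mature miRNA, and both loci were higher in fat, by 1.26 and 1.62. Mir378a, within the coactivator gene Ppargc1b, was higher in fat by 1.97. In the ovaries Mir181a-2 and Mir181b-2, neighbours on chromosome 2, were higher by 1.07 and 1.32 and Mir128-1 by 1.78, the first falling to 0.91 and 0.97 without fat array 3 or ovary array 1, under the criterion. Mature sequences (RefSeq, GRCm38.p6, 5′ to 3′, seed of bases 2 to 8 in capitals) show that the pair of the miR-181 family shares its seed.
mmu-miR-181a-5p: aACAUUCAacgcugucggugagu
mmu-miR-181b-5p: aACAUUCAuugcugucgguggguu
mmu-miR-128-3p: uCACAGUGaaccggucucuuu
mmu-miR-365-3p: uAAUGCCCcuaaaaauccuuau
mmu-miR-708-5p: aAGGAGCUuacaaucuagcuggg
mmu-miR-126b-5p: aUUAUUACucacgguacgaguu

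Over chromosomes, the share of tested genes called higher in the ovaries ran from 4.98% on chromosomes 11 and 17 to 12.1% on chromosome 13. This leaves out the Y chromosome, with 5 genes tested. The X chromosome combined 11.8% higher in the ovaries with 2.14% higher in fat, of 888 tested, where all genes gave 7.8% and 5.56%. Chromosomes 9 and 3 had the highest shares called in fat, 8.21% and 8.3%.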

How the data were processed

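RNA of ovaries and gonadal fat from 3 control and 3 DHT-treated mice was measured on 12 Affymetrix arrays. The authors deposited log2 values, 1 per transcript cluster and array, from 0.698 to 13.2. MAS5 is the tool in the submitters' processing notes, and the normalization of the arrays is not stated in the sources used here. MAS5 summarises each array by itself, so brightness can differ between arrays.

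Of 65929 clusters, 30638 carry 1 gene symbol in the platform annotation, 2176 several and 33115 none. Clusters with several or none were left out, and the brightest cluster stood for each of 30176 genes. The fat values of chromosomes 10 to 19 were out of order with their names and were re-paired by sorting the names with "_" ahead of the digits. The 6 control arrays were quantile-normalized over all clusters. Genes above the array median on at least 3 arrays were tested with limma 3.58.1 (lmFit and eBayes, R 4.3.3), two-sided, with p-values adjusted by Benjamini and Hochberg. The methods of the study use SAM, for which limma stands here. DHT-treated arrays were fitted likewise, and the interaction in 1 fit of all arrays. The fits were tested on simulated data. Tables and plots used Python 3.11.15.

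Members and the 51 gene lists were chosen with earlier results of these data known, so no list has a p-value. Of 814 listed genes, 718 had a value and 670 were tested. Named genes are up to 25 per direction with the largest change among named genes that do not overlap, members of lists, cell type markers, and genes of neighbouring tissue or of opposite sign in DHT-treated mice. The hosts Egfl7 and Ppargc1b, Fabp3-ps1 and the miRNA loci were named after their values were seen. Alternatives cover scaling, filter, clusters, row order, block, variance model, thresholds and single arrays. Promoter and miRNA sequences are from RefSeq.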

Additional observations from a re-analysis of the deposited data

Results flagged for a closer look

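For 1 set of named genes the difference between ovary and gonadal fat itself differed between DHT-treated and control mice, at an adjusted p of at most 0.05 for the interaction in 1 limma fit of all 12 arrays. Values are the ovary minus fat difference in DHT-treated mice minus that in controls, on the log2 scale. Among genes higher in control ovaries the change was -6.67 for Akr1c18, -4.43 for Sfrp4, -3.63 for Ptgfr, -2.20 for Star, -1.73 for Cyp11a1, -1.04 for Prss35 and -0.69 for Wnt4, all smaller differences in DHT-treated mice. Akr1c18 and Ptgfr also spread among the control ovaries, and the part of cycle stage or luteal content in these values was not tested. Abcb1b (-3.47), Fkbp5 (-2.04) and Wnt10b (-1.81) turned to higher means in fat. The excess in the ovaries was larger in DHT-treated mice for Fabp3 (2.48), its pseudogene Fabp3-ps1 (2.56) and Akr1c14 (1.60). Kit, which was not called in controls, changed by 2.89 and Pcna, also not called, by -0.44.

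Among genes higher in control fat, a negative change is a larger excess in fat. It was -2.99 for Plin4, -1.95 for Lep, -1.49 for Fzd4, -1.37 for Hsd11b1, -1.35 for Pde3b, -0.94 for Ebf2, -0.83 for Pnpla2, -0.72 for Lipe, -0.62 for Ebf1 and -0.60 for Cebpa. No test for a single array far from the others was made, since it is not run on groups of 3.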

How the results depend on the processing

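Counts are given as genes higher in the ovaries and in fat, 1545 and 1100 in the report, and at least 16-fold, 26 and 15. With the values as deposited they were 8430 and 312 (71 and 2), with centring on ribosomal protein genes 1007 and 2374 (14 and 33), and in the deposited row order 5877 and 3499 (620 and 389), since each choice moves whole arrays or gives fat genes the values of others. A filter at the 75th percentile, with fewer genes tested, left 1009 higher in the ovaries, and a test against a 2-fold difference (limma treat) 815 and 514. With the undisplaced clusters alone, 11920 genes, the counts were 977 and 685. Median centring raised the 16-fold count in fat to 24, and the cause was not tested. Leaving out 1 array gave 1477 to 1675 higher in the ovaries, 1071 to 1176 in fat, 25 to 29 and 10 to 26 at least 16-fold, the last highest without ovary array 1. Without ovary array 2 and fat array 3, a setting chosen after seeing the data, they were 1480 and 1157 (25 and 15). Without a filter, with the mean of a gene's clusters, all 12 arrays in 1 fit, an intensity trend, an adjusted p of at most 0.1, or the unadjusted p of at most 0.01 of the study's methods (added after seeing the data), every count stayed within 1.5 times. Percentile ranks called at 10 points gave 1771 and 1381, with 1288 and 730 of the genes called in the report, and no 16-fold counts; fat counts fell from 14 to 5 for fatty acid synthesis, 25 to 16 for adipocyte genes, 10 to 2 for endothelium and 4 to 0 for the matrix list.

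With the replicate number as a block the counts were 1551 and 1099, of which 1545 and 1099 are also called without it. Ovary and fat arrays of the same number deviated from their group means with correlations of 0.126, 0.0826 and 0.102 across genes in controls and 0.104, 0.13 and 0.125 in DHT-treated mice. The second is under 0.1 and the labels give no shared mouse, so the numbers were not taken to pair the samples, although each array correlated best with its own number. The interaction with treatment and number as a block, added after seeing the data, was called for 310 genes against 594 (271 in both). Of the 25 named genes, 19 were called with the block. The others, Cebpa (0.0704), Hsd11b1 (0.0695), Pcna (0.0564), Prss35 (0.0525), Ptgfr (0.0695) and Wnt4 (0.0792), had the adjusted p-values given.

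Of the 221 genes named and tested, 34 turned in the deposited row order: 29 had been called the other way, and the others were called there against their earlier sign. There the ovary minus fat difference was, above 0, Abcd2 2.70, Acaca 5.23, Acly 5.17, Adgre1 2.10, Adipoq 2.96, Aldh6a1 3.87, C4b 2.50, Ccl6 0.34, Cfb 3.15, Csf1r 2.08, Cyp21a1 1.89, Dcn 1.93, Dmrt2 2.62, F13a1 2.32, Fasn 4.12, Fbln5 4.80, Gpd1 1.83, Hoxc10 0.98, Hoxc9 0.84, Kitl 4.76, Lama4 5.36, Lpin1 2.50, Pcx 5.06, Pecam1 2.97, Plin4 5.09, Rbp4 3.48, Rspo3 4.43 and Slc2a4 2.14, and below 0, Amh -2.10, Amhr2 -1.83, Birc5 -3.08, Gdf9 -1.58, Srd5a1 -1.15 and Wnt10b -4.16. Cebpd, Esr1 and Gli3, called in neither order, changed sign too. No called gene turned under the other alternatives. Of genes not called, 17 had a positive in place of a negative difference with the values as deposited (Adgre1, Cebpb, Cebpd, Csf1r, Cyp11b2, Cyp21a1, Esr1, Gli3, Hilpda, Insr, Izumo1r, Kit, Kitl, Lyve1, Npr2, Prdm16 and Shh), Figla a negative one with ribosomal centring, and Gli3, Izumo1r or Npr2 changed sign, near 0, without 1 or 2 arrays. The other results over all alternatives were 4498 with the same call, 160 calls lost, most of them under the treat test (40), ranks (38) and the values as deposited (28), and 43 gained. Brightness is not read depth, and values near or below the array median have little room to fall.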
